A study of Homo sapiens with 8 samples.

Results

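SK-N-MC Ewing sarcoma cells in which the enhancer of LOXHD1 had been silenced with 1 of 2 guide RNAs (the pool named eKD2) were compared with control cells after both had been kept in hypoxia. The comparison used 4 of the 8 RNA libraries, 2 from eKD2 and 2 from control cells. Of the 60332 genes in the expression table, 10867 reached 5 FPKM (fragments scaled to the length of a gene's exons and to the size of the library) in at least 2 of the 4 libraries and were tested. Of these, 9795 reached that level in all 4 libraries, 160 in both control libraries and neither eKD2 library, and 264 in both eKD2 libraries and neither control library. Genes of the last 2 kinds entered through the group in which they were high, so their counts are not support for a difference.

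SK-N-MC is an established line that carries the EWSR1-FLI1 fusion, the defining lesion of Ewing sarcoma. Cells of the eKD2 pool had been infected with a lentivirus carrying the guide together with dCas9-KRAB, a Cas9 that cannot cut joined to a repressor domain, and the growth protocol gives control cells the same virus without a guide. Both were infected at a multiplicity of 10, selected in puromycin at 1 μg/ml, used within 5 passages, and held at 1% O2 for 16 h. The treatment protocol in the labels names only eKD1, a pool made with the other guide, next to the control, and the labels mark the controls as having no genetic variation. The 2 libraries of a group were described as biological duplicates of pooled, not cloned, cells, and 2 eKD1 hypoxia libraries and 2 control libraries from normoxia, that is without the hypoxia chamber, were used here only to set levels side by side.

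EWSR1-FLI1 binds runs of the tetranucleotide GGAA and can turn them into enhancers, and dCas9-KRAB lays repressive chromatin around the site to which its guide leads it. LOXHD1 encodes a protein of the stereocilia of inner-ear hair cells and is silent in most other tissues. Cells that meet hypoxia, lack of amino acids or misfolded protein phosphorylate the initiation factor eIF2, which lowers general translation and favours the transcription factor ATF4. ATF4 then drives genes for amino acid uptake, amino acid synthesis and transfer RNA charging, a program called the integrated stress response.

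The guide was placed beside the GGAA repeat of LOXHD1, a gene annotated on the minus strand at chr18:44056935-44237183 of GRCh37.

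Control hypoxia cells held 93.0 and 91.1 FPKM of LOXHD1 and eKD2 cells 11.7 and 11.8 FPKM. The level in eKD2 was 12.7% of control, a fall by 2.87 on the log2(FPKM + 1) scale (SE 0.0763, n = 2 per group, limma adjusted p = 0.00161). The eKD1 libraries held 17.3 and 15 FPKM, and the difference between the guides did not pass the test (adjusted p = 0.121). The targeted gene was therefore low in every library labelled as a knockdown, with no overlap with any control.

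Across the transcriptome 2306 genes passed the test, 21.2% of those tested, of which 1391 were higher in eKD2 (12.8%) and 915 lower (8.42%). The median log2 change over all tested genes was 0.05 and the median absolute log2 change of the called genes was 0.60. At least a 2-fold change was seen for 261 genes called higher and 81 called lower. Of the 43 genes called at 4-fold or more, 26 had under 300 nt of exons and 28 were listed at 0 in both libraries of one group, and only 11 were protein-coding. Very short RNAs such as SNORD33, listed at 0 in both control libraries and at 858 and 1327 FPKM in eKD2, made up most of these extremes, and they are not described further because a read assigned to a gene of that length is worth many FPKM. With either library of either group left out, the counts fell to between 2 and 22 genes in all, so most calls below were lost when 1 library was removed.

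**Figure D1:**
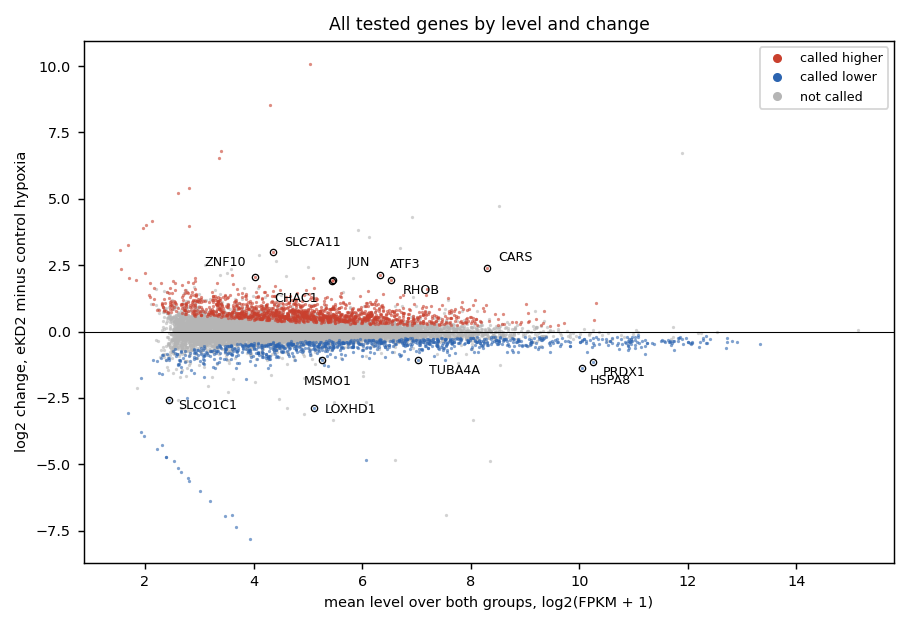
Each point is a tested gene, with its mean level in the control hypoxia and eKD2 groups as log2(FPKM + 1) on the x axis and its log2 change, eKD2 minus control hypoxia, on the y axis. Red points (1391) were called higher, blue points (915) called lower and grey points not called. Among the circled genes, SLC7A11 is the highest at 3.0 and LOXHD1 the lowest at -2.87, and the called points beyond 5 either way are RNAs under 300 nt.

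In the 4 libraries compared, duplicates were closer to each other than to the other group. Duplicates correlated across the tested genes at r = 0.950 in control hypoxia and 0.939 in eKD2, and control and eKD2 libraries at 0.916 to 0.922. The eKD1 libraries were less apart, and control hypoxia 1 and eKD1 hypoxia 1 correlated at 0.946, above the eKD2 duplicates. These are correlations over genes within pairs of libraries and carry no test. The sum of FPKM over all genes was 1041457 and 1018475 in the controls against 953073 and 959843 in eKD2. The step size of low values put the library size used in scaling at 77.6% and 77.1% of the first control library for eKD2. For the second control library it was 96.1%. The most frequent step ratio was shared by 16.9% and 17.4% of the genes used in eKD2 and by 18.3% in the second control library. These values stand for depth only as far as the scaling followed read numbers. Absolute read numbers are not known from FPKM. Scaling the libraries to equal FPKM totals would move the median change of all tested genes to 0.15, and changes below are given relative to the authors' own scaling.

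Around LOXHD1, 45 genes of the table lie within 1 Mb, 24 of them at 0 in all hypoxia libraries and 10 at levels that could be tested. Of the 10, 1 was called, C18orf25, at 30.3 and 29.5 FPKM in control and 18.9 and 22.4 FPKM in eKD2 (log2 change -0.52, SE 0.115, adjusted p = 0.0452), and with equal totals this call was lost and 1 gene was called higher. Distances were taken from the annotated LOXHD1 start. The study places the start used in Ewing sarcoma cells further downstream, within the annotated gene. KATNAL2, which encodes a katanin-like protein, was nearest to the annotated start on one side together with PIAS2, and had a log2 change of 0.60 that did not pass (adjusted p = 0.0596). RNF165, the nearest tested gene on the other side, had a log2 change of -0.19 (adjusted p = 0.603).

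**Figure D2:**
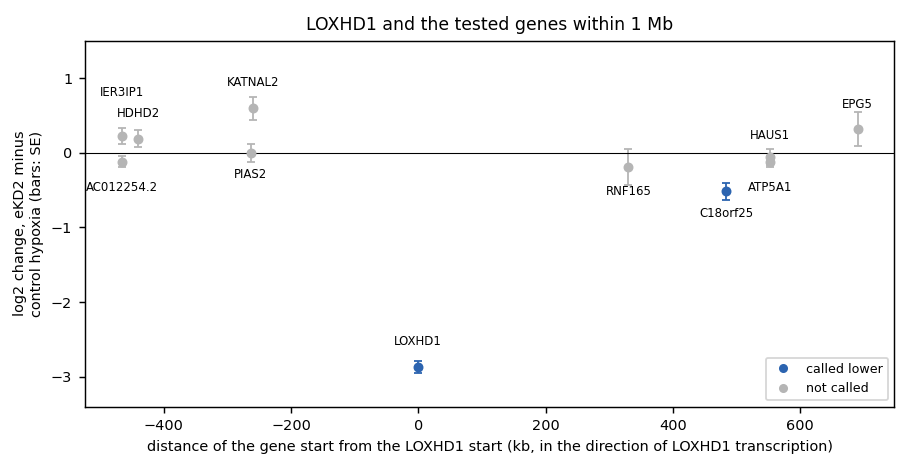
The x axis gives the distance in kb from the annotated LOXHD1 start to the start of each tested gene within 1 Mb, positive in the direction in which LOXHD1 is transcribed, and the y axis the log2 change, eKD2 minus control hypoxia, with bars for the SE (n = 2 per group). LOXHD1 lies at -2.87, C18orf25 at -0.52 was called lower, and the other 9 genes lie between -0.19 and 0.60.

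Regulators of the integrated stress response were higher in eKD2 hypoxia than in control hypoxia. Of 23 listed, 20 were tested, 14 rose and 0 fell, with a median log2 change of 0.48 against 0.05 over all tested genes. ATF4, the central transcription factor, was at 331 and 333 FPKM in control and 381 and 406 FPKM in eKD2, a small rise of 0.24 on the log2 scale (adjusted p = 0.0429). Its effectors moved further. ATF3, a stress-induced repressor and activator, was at 36.4 and 38.0 FPKM in control and 181 and 151.0 FPKM in eKD2 (log2 change 2.12, SE 0.108, adjusted p = 0.00729). CHAC1, which degrades glutathione, went from 21.4 and 21.7 to 80.9 and 87.2 FPKM (log2 change 1.91, SE 0.0802, adjusted p = 0.00443). The groups did not overlap for either gene, as was so for 67.6% of all tested genes, and in eKD1 the levels were 29.9 and 38.6 FPKM (ATF3) and 10.2 and 9.04 FPKM (CHAC1).

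JDP2, a partner of JUN, rose from 20.8 and 16.6 to 56.9 and 62.7 FPKM, and PPP1R15A (GADD34), the phosphatase subunit that reverses eIF2 phosphorylation, from 37.3 and 39.0 to 98.3 and 96.2 FPKM. DDIT3 (CHOP), the death-associated factor, rose from 140.7 and 135.5 to 198 and 205 FPKM, and TRIB3, a pseudokinase induced by CHOP, from 22.5 and 23.6 to 36.0 and 37.3 FPKM. SESN2, an inhibitor of mTORC1, CEBPG, a dimer partner of ATF4, ATF5, and the translation repressor EIF4EBP1 also rose, with log2 changes of 1.09, 0.88, 0.36 and 0.33. STC2, a secreted glycoprotein, and VLDLR, a lipoprotein receptor, rose by log2 changes of 0.81 and 1.1. EIF2AK4 (GCN2), the kinase that senses uncharged transfer RNA, was at 30.3 and 36.7 FPKM in control and 33.2 and 22.3 FPKM in eKD2, overlapping ranges with no call (adjusted p = 0.394).

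Genes of amino acid uptake rose along with them. All 12 listed transporters were tested, 9 rose and 0 fell, and the median log2 change was 0.80. SLC7A11, the cystine and glutamate exchanger, had the largest rise of any protein-coding gene that passed the test, from 6.42 and 6.05 to 58.4 and 55.7 FPKM (log2 change 3.0, SE 0.0935, adjusted p = 0.00233). Its exons overlap those of an antisense gene, SLC7A11-AS1, and counting by strand was not stated. SLC7A1, which carries arginine and lysine, went from 16.4 and 18.3 to 54.1 and 51.6 FPKM (log2 change 1.55). SLC7A5 and SLC3A2, the light and heavy chains of the large neutral amino acid transporter, rose by log2 changes of 1.05 and 0.79. The glutamine carriers SLC38A1 and SLC1A5 rose by 1.2 and 0.76, and the glycine carrier SLC6A9 by 1.16. In normoxic control cells SLC7A11 stood at 18.1 and 18.3 FPKM, above control hypoxia and below eKD2.

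Amino acid synthesis and one-carbon metabolism had 14 tested members of 15, of which 6 rose and 1 fell, with a median log2 change of 0.48. The calls differed along the serine pathway. PSAT1, its second enzyme, rose from 178 and 178 to 401 and 405 FPKM (log2 change 1.18, SE 0.0462, adjusted p = 0.00403), and PSPH, the last enzyme, from 47.4 and 47.0 to 109 and 98.2 FPKM. PHGDH, the first enzyme, was at 580 and 549 FPKM in control and 676 and 585 FPKM in eKD2 and did not pass (adjusted p = 0.242). MTHFD2, the mitochondrial folate enzyme, and ASNS, asparagine synthetase, rose by log2 changes of 1.00 and 0.92. SHMT1, the cytosolic serine hydroxymethyltransferase, fell from 34.8 and 38.2 to 22.4 and 20.2 FPKM (log2 change -0.75, adjusted p = 0.0198).

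Of the 20 cytosolic aminoacyl-tRNA synthetase genes, which charge transfer RNAs with their amino acids, 12 rose and 0 fell, with a median log2 change of 0.66. AARS, for alanine, rose from 84.8 and 85.9 to 165 and 188 FPKM (log2 change 1.04, SE 0.0845, adjusted p = 0.0120). GARS, for glycine, rose from 216 and 220.3 to 468 and 415 FPKM, MARS, for methionine, from 387 and 334 to 665 and 811 FPKM, and NARS, for asparagine, from 196 and 179 to 329 and 339 FPKM. CARS, for cysteine, had the largest fitted change at 2.40 (SE 0.400, adjusted p = 0.0271), but its control libraries were uneven at 87.7 and 196 FPKM against 748 and 645 FPKM in eKD2, and its exons overlap antisense genes. WARS, for tryptophan, was at 72.5 and 63.2 FPKM in control and at 80.9 FPKM in one eKD2 library and 349 FPKM in the other, and so was not called (adjusted p = 0.246).

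**Figure D3:**
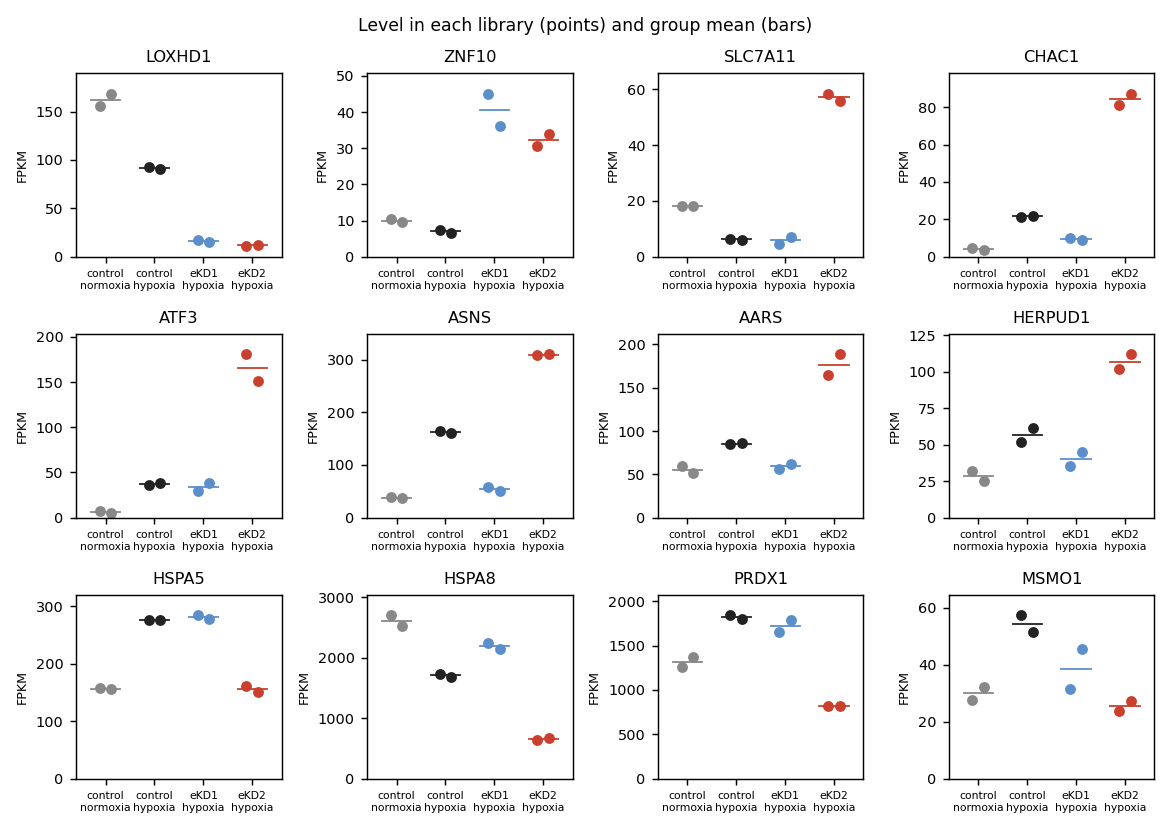
FPKM in each of the 8 libraries (points) and the group mean (bars) for 12 genes, each on its own linear y axis from 0, with the groups control normoxia, control hypoxia, eKD1 hypoxia and eKD2 hypoxia along the x axis (n = 2 each). LOXHD1 is low and ZNF10 high in both knockdown groups, SLC7A11 to HERPUD1 are highest in eKD2, and HSPA5, HSPA8, PRDX1 and MSMO1 are lower in both eKD2 libraries than in both control hypoxia libraries.

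ATF4 and its C/EBP partners bind composite elements whose core reads TGATGCAA, so the promoters of these lists were searched for that core on both strands (TTGCATCA on the other). Windows from 250 bases before to 50 after the RefSeq start (GRCh38.p14) were used, and 1.08% of all 27305 genes with a window held the core. Among the synthetases 16 of 20 had a window and 6 held the core (AARS, CARS, IARS, MARS, NARS and TARS), all 6 of which were called higher, whereas 3 of the 10 without it were called higher. Of all 61 tested genes whose window held the core, 22 were called higher (36.1%, against 12.8% of all tested genes) and 36 were not called. A further 3 were called lower (4.92%, against 8.42%). The difference between genes with and without the core was not tested. Among the transporters it was found in 2 of 10, SLC1A4 and SLC1A5, both called higher, with 6 of the other 8 called. In amino acid synthesis it was found in 2 of 10, MTHFD1L and GOT1, and 0 of these were called. Of the other 8 in that list, 4 were called higher and 1 lower. Among the stress response regulators it was found in 4 of 18 (CEBPG, CHAC1, JDP2 and PPP1R15B), 3 of them called higher, with 10 of the other 14 called. A match is a description of letters in a window, and most called members had none in theirs. Stretches around 5 of these matches are shown 5′ to 3′ on the strand of the gene, with the core in capitals, to let the elements of genes that moved together be compared.
AARS, chr16:70289660-70289719, minus strand: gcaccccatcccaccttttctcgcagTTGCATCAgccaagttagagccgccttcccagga
CARS, chr11:3057407-3057436, minus strand: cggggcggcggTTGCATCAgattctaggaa
MARS, chr12:57488053-57488082, plus strand: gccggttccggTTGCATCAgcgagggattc
NARS, chr18:57621804-57621833, minus strand: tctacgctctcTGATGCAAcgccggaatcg
CHAC1, chr15:40953236-40953295, plus strand: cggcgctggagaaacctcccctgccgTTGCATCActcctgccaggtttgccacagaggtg

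Genes of protein folding in the endoplasmic reticulum were mixed, with more falls than rises among those called. All 25 listed genes were tested, 2 rose, 6 fell and 17 were not called, and 12 of the 25 had positive log2 changes. HSPA5 (BiP), the main chaperone of the compartment, fell from 276 and 276 to 160.5 and 151.0 FPKM (log2 change -0.82, SE 0.0571, adjusted p = 0.0120). HSP90B1 (GRP94) fell from 902 and 853 to 711 and 624 FPKM, and the lectin chaperone CALR from 1297 and 1301 to 1033 and 1076 FPKM. PDIA4, a disulfide isomerase, fell by 0.29 on the log2 scale. HERPUD1, which takes part in degradation of misfolded proteins, rose from 52.1 and 61.3 to 102 and 112 FPKM (log2 change 0.90, adjusted p = 0.0172), and HYOU1 rose by 0.41 (adjusted p = 0.050). The unfolded protein response factor XBP1 (log2 change -0.35, adjusted p = 0.0830) and the co-chaperone DNAJB9 (-0.77, adjusted p = 0.172) were not called. With equal totals 2 of the 25 were called lower in place of 6.

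Promoters of this list were searched for the endoplasmic reticulum stress element, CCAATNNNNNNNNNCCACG on either strand, found in 0.0916% of all genes with a window. It was present in 8 of the 24 members with a window (HSPA5, HSP90B1, CALR, CANX, PDIA6, CRELD2, XBP1 and ERO1B), of which 3 were called lower and 0 higher, against 3 lower and 2 higher of the 16 without it. Of all 15 tested genes with the element, 3 were called lower (20%), 0 higher and 12 were not called, with a median log2 change of -0.07. Over all tested genes 8.42% were called lower and 12.8% higher, and the difference was not tested. HERPUD1, the list member with the largest rise, was the only list member that held the ATF4 core instead. The stretches are given to set these elements beside each other, with the match in capitals (GRCh38.p14, strand of the gene).
HSPA5, chr9:125241370-125241429, minus strand: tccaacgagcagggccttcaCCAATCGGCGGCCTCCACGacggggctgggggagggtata
HSP90B1, chr12:103930196-103930255, plus strand: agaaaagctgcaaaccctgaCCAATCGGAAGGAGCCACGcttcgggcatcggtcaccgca
CALR, chr19:12938364-12938423, plus strand: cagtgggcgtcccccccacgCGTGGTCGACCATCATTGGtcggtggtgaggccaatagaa
HERPUD1, chr16:56931940-56931999, plus strand: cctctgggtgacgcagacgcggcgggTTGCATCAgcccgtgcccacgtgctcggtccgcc

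Chaperones of the cytosol and mitochondria were mostly lower in eKD2. Of 20 tested, 12 fell and 2 rose, with a median log2 change of -0.34. HSPA8, the constitutive HSP70 of the cytosol, fell from 1738 and 1687 to 639 and 679 FPKM (log2 change -1.38, SE 0.0465, adjusted p = 0.00303), while eKD1 held 2244 and 2149 FPKM. Its co-chaperone DNAJA1 fell from 164 and 163 to 80.3 and 78.5 FPKM (log2 change -1.03, adjusted p = 0.00858). The inducible pair HSPA1A and HSPA1B fell by 1.56 and 0.82 on the log2 scale, from 11.6 and 12.1 FPKM to 2.89 and 3.84 FPKM for HSPA1A, which was tested only through its level in control. These copies are nearly identical, so their separate values are uncertain. HSP90AA1 and HSP90AB1, the cytosolic HSP90 chaperones, fell by 0.75 and 0.57, and HSPE1 and HSPD1, the mitochondrial chaperonin pair, by 0.79 and 0.33. HSPA9, the mitochondrial HSP70, went the other way, from 520.2 and 477 to 686 and 684 FPKM (log2 change 0.46, adjusted p = 0.0175), as did HSPA4 with a log2 change of 0.46.

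The element searched was the heat shock factor site, units of GAA, TTC and GAA set 2 bases apart, on either strand, present in 0.608% of all genes with a promoter window. It was found in 6 of 18 chaperone genes (HSPA8, HSP90AA1, HSP90AB1, DNAJA1, HSPD1 and CHORDC1), 5 of which were called lower, against 7 called lower and 2 higher of the 12 without it. Of all 42 tested genes with the site, 9 were called lower (21.4%), 4 higher (9.52%) and 29 were not called, with a median log2 change of -0.01. The shares over all tested genes were 8.42% lower and 12.8% higher, and the difference was not tested. The matches of the members with the largest falls are shown in capitals (GRCh38.p14, strand of the gene).
HSPA8, chr11:123062327-123062386, minus strand: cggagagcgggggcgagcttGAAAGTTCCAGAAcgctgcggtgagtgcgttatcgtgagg
DNAJA1, chr9:33025268-33025297, plus strand: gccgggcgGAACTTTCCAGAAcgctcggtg

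Messenger RNAs of the cytosolic ribosomal proteins were lower as a group, by small amounts. All 79 were tested, 74 fell, 0 rose, and all 79 had a negative log2 change, between -0.91 and -0.15 with a median of -0.39. RPS29 went from 4642 and 4086 to 2639 and 2714 FPKM (log2 change -0.70, adjusted p = 0.0132), and RPS3 from 8777 and 8803 to 6705 and 6639 FPKM (log2 change -0.40, adjusted p = 0.00781). The median was -0.45 after median-of-ratios rescaling and -0.28 with equal totals, so its sign did not depend on the scaling, but 40 in place of 74 were called when the prior variance was given no trend with level. These genes have many processed pseudogenes, and how reads that fit several places were shared was not stated. In eKD1 the median of the same list against control hypoxia was -0.27, and 2 members differed between eKD2 and eKD1.

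Some genes that build ribosomes were higher in eKD2. Of 25 tested members of the list for MYC and ribosome biogenesis, 9 rose, 1 fell and 15 were not called, with a median log2 change of 0.25. MYC, the transcription factor, rose from 152 and 149 to 275 and 248 FPKM (log2 change 0.79, adjusted p = 0.0121). RRP9, of the U3 particle that processes ribosomal RNA, rose from 6.64 and 5.74 to 12.8 and 15.8 FPKM, WDR43 by a log2 change of 1.03 and the helicase DDX21 by 0.98. FBL, the ribosomal RNA methyltransferase, was the one member that fell, from 891 and 893 to 747 and 756 FPKM. In normoxic control cells MYC stood at 209 and 235 FPKM and DDX21 at 58.1 and 62.5 FPKM, above control hypoxia in both cases.

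**Figure D4:**
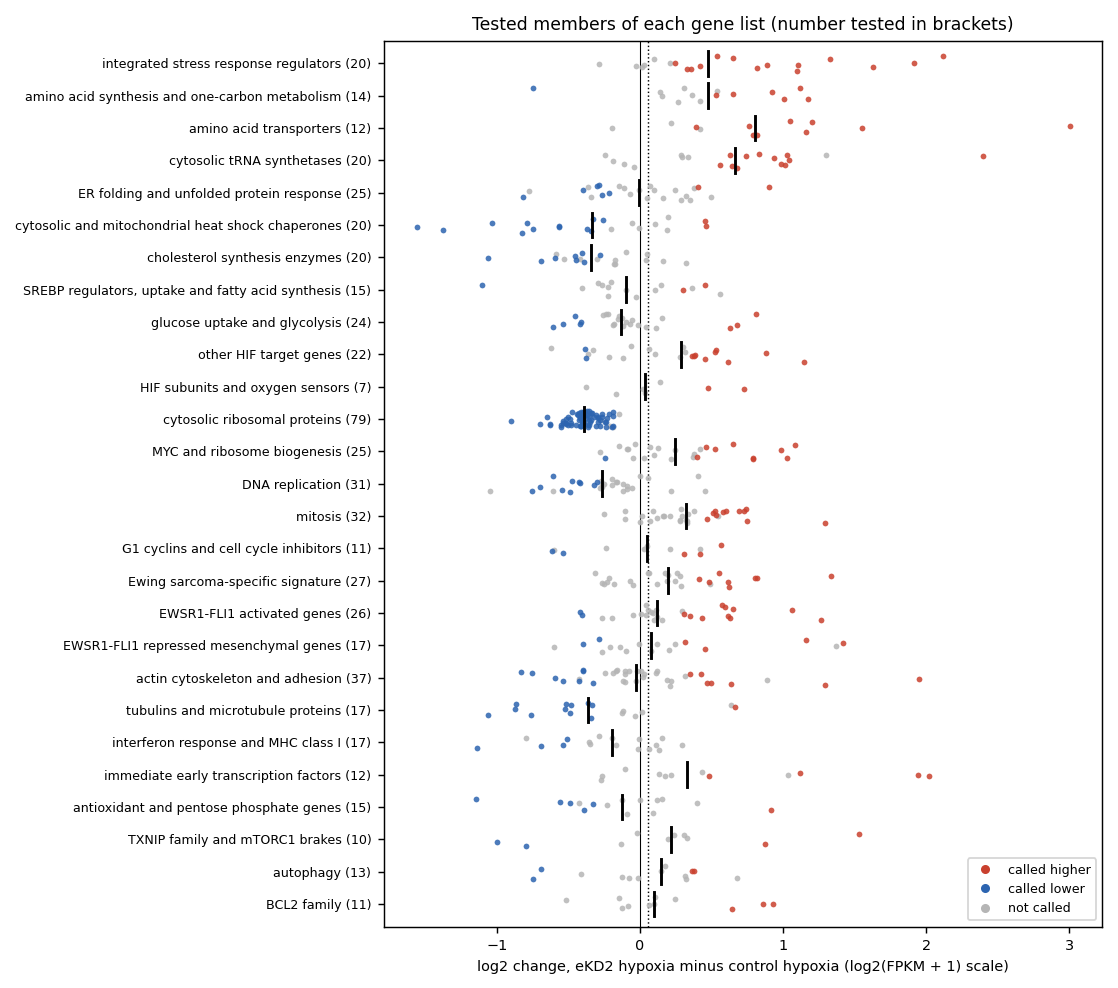
Each row is a gene list with its number of tested members in brackets, each point a member placed by its log2 change, eKD2 minus control hypoxia, and coloured by its call, and each black bar the median of the members. The dotted line marks the median of all tested genes, 0.05. The medians of the amino acid transporters (0.80), synthetases (0.66) and stress response regulators (0.48) lie to its right, and those of the ribosomal proteins (-0.39), tubulins (-0.36), cholesterol enzymes (-0.35) and chaperones (-0.34) to its left.

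Cholesterol synthesis enzymes had 8 members that fell and 0 that rose among 20, with a median log2 change of -0.35. MSMO1, the sterol methyl oxidase, fell from 57.3 and 51.4 to 23.6 and 27.3 FPKM (log2 change -1.07, SE 0.113, adjusted p = 0.0144), and HMGCS1, the HMG-CoA synthase, from 42.6 and 44.1 to 25.9 and 26.9 FPKM. SQLE, the squalene epoxidase, fell by 0.45 on the log2 scale. Under equal totals 5 were called lower and 1 higher, and under the replicate block 3 lower. Of the 15 tested genes for SREBP regulation, lipid uptake and fatty acid synthesis 2 rose and 1 fell. The share called, 20.0%, lies near the 21.2% over all tested genes, and nothing is read from this list as a group. INSIG1, which retains the SREBP complex when sterols are plentiful and is itself an SREBP target, fell from 22.2 and 20.6 to 9.05 and 9.80 FPKM (log2 change -1.1, adjusted p = 0.0135). SREBF2, the transcription factor of the pathway, was not called (log2 change -0.20, adjusted p = 0.106). The fatty acid desaturases FADS1 and FADS2 rose by 0.30 and 0.46.

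Hypoxia itself was visible in the libraries of both groups. CA9, a carbonic anhydrase that HIF induces, was listed at 0 in both normoxic libraries and stood at 82.8 and 72.1 FPKM in control hypoxia and 66.0 and 56.9 FPKM in eKD2, and the difference between the last 2 groups did not pass (log2 change -0.33, adjusted p = 0.114). VEGFA, the angiogenic growth factor, likewise did not pass (log2 change -0.22, adjusted p = 0.126). Of 22 tested HIF targets outside glycolysis, 9 rose and 2 fell, with a median log2 change of 0.29. MXI1, a MYC antagonist, rose from 27.4 and 23.7 to 55.9 and 59.6 FPKM (log2 change 1.15, adjusted p = 0.0121), CITED2, a feedback inhibitor of HIF, by 0.88 and ANKRD37 by 0.61, while HILPDA, a lipid droplet protein, fell from 313 and 312 to 241 and 238 FPKM (log2 change -0.38) and WSB1 by 0.38. Without a variance trend 3 of the list were called higher in place of 9.

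The glycolysis list was mixed. Of 24 tested genes, 5 fell, 3 rose and 16 were not called, with a median log2 change of -0.14. The 5 that fell were ALDOA, ALDOC, GAPDH, PKM and LDHB. ALDOA, an aldolase, went from 8098 and 8286 to 5343 and 5399 FPKM (log2 change -0.61, SE 0.0246, adjusted p = 0.00403), GAPDH from 12097 and 12129.9 to 8526 and 9136 FPKM (-0.46), and LDHB by -0.42. LDHA, the lactate dehydrogenase that hypoxia induces, was at 6018 and 5842 FPKM in control and 5909 and 5829.9 FPKM in eKD2, overlapping ranges with a log2 change of -0.01 that became 0.09 with equal totals. In all 33.3% of the list were called, against 21.2% over all tested genes. The 3 of 24 called higher lie near the 12.8% called higher over all tested genes, and nothing is read from their places in the pathway. HK2, hexokinase, went from 75.6 and 80.5 to 125 and 117 FPKM (log2 change 0.63, adjusted p = 0.0162), next to PDK1, which closes off pyruvate dehydrogenase, and the glucose transporter SLC2A1. Of the 7 tested HIF subunits and oxygen sensors 2 rose, HIF1A from 33.3 and 39.0 to 62.1 and 58.5 FPKM and the prolyl hydroxylase EGLN1 by 0.47. HIF1A shares exon sequence with antisense genes.

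LOXHD1 protein is known from stereocilia, which are built on actin bundles, and cytoskeletal genes were followed for that reason. Among tubulins and microtubule proteins 11 of 17 tested fell and 1 rose, with a median log2 change of -0.36. TUBA4A fell from 176 and 200.2 to 90.8 and 87.4 FPKM (log2 change -1.07, adjusted p = 0.0120), and TUBB6, TUBB3 and TUBB4B by 0.87, 0.87 and 0.76 on the log2 scale. MAP4, which binds and stabilises microtubules, rose by 0.66. Under equal totals 8 of the 17 fell. Tubulin genes share long stretches of sequence, and values of single paralogs depend on how shared reads were assigned.

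The actin and adhesion list was mixed, with 7 of 37 tested members higher, 8 lower and a median of -0.03 that turned to 0.08 under equal totals. ACTG1, cytoplasmic γ-actin, fell from 3226 and 3129 to 1736 and 1831 FPKM (log2 change -0.83, SE 0.0406, adjusted p = 0.00653), and PFN1, profilin, and TMSB10, a thymosin that binds actin monomers, by 0.75 and 0.60 on the log2 scale. RHOB, an endosomal small GTPase, rose from 48.5 and 44.2 to 179 and 185 FPKM (log2 change 1.95, SE 0.0755, adjusted p = 0.00403), and eKD1 lay between at 104 and 113 FPKM. RND3, a small GTPase that opposes contractility, rose by 1.29, but it passed the filter only through its level in eKD2, so its rise is not support. The related RHOC fell by 0.54. Small GTPase genes were thus called in both directions. In all 40.5% of the list were called, against 21.2% over all tested genes.

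The cell cycle lists had medians on opposite sides of 0. Of 32 tested mitotic genes 11 rose and 0 fell (median log2 change 0.32), and of 31 tested DNA replication genes 10 fell and 0 rose (median -0.26). HMMR, which organises the spindle, rose from 6.73 and 8.93 to 19.8 and 21.3 FPKM (log2 change 1.30, adjusted p = 0.0177). PLK1, the mitotic kinase, went from 60.5 and 53.2 to 94.2 and 97.9 FPKM, CDC20, an activator of the anaphase-promoting complex, from 70.6 and 68.0 to 111 and 114 FPKM, and CENPA, the centromeric histone, from 23.2 and 21.3 to 35.7 and 39.9 FPKM. CCNE1, the cyclin of S phase entry, fell from 18.5 and 18.4 to 10.6 and 10.5 FPKM (log2 change -0.76, adjusted p = 0.0181), ORC1, of the origin recognition complex, from 25.6 and 25.2 to 15.8 and 14.7 FPKM, and MCM5 and E2F1 by 0.61 and 0.55 on the log2 scale. The signs of both medians held under both rescalings. Of 11 tested G1 cyclins and cell cycle inhibitors 3 rose and 2 fell, among them the inhibitors CDKN1B (p27), which rose by 0.57, and CDKN2A, which fell by 0.61. In bulk RNA a lower share of cells in a phase and less RNA per cell cannot be told apart.

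Genes tied to EWSR1-FLI1 showed no common fall. FLI1, whose 3′ part is in the fusion, was at 20.8 and 22.2 FPKM in control and 23.7 and 24.8 FPKM in eKD2 (log2 change 0.17, adjusted p = 0.241). Of 27 tested genes of a signature particular to Ewing sarcoma other than LOXHD1, 8 rose and 0 fell (median 0.19), and of 26 tested genes that the fusion activates, 10 rose and 2 fell (median 0.12). The study chose that signature for its specificity to these tumors, and not on these libraries. DUSP26, a phosphatase, rose from 12.8 and 11.3 to 31.1 and 32.5 FPKM (log2 change 1.33, adjusted p = 0.0120), SOX6 from 20.9 and 20.8 to 47.5 and 56.1 FPKM (1.27), and NR0B1 (DAX1), a nuclear receptor that Ewing cells depend on, from 32.5 and 32.0 to 65.2 and 71.6 FPKM (1.06). CCK, cholecystokinin, and CAV1, caveolin, fell by 0.42 and 0.41. NKX2-2 was at 30 and 27.6 FPKM in control and 26.9 and 28.7 FPKM in eKD2 (log2 change -0.05, turning to 0.05 with equal totals). Among 17 tested mesenchymal genes that the fusion represses, 4 rose and 2 fell. Their median of 0.08 was near the 0.05 over all tested genes, of which 12.8% were called higher and 8.42% lower. The largest rises were those of the YAP targets CYR61, from 50.6 and 49.2 to 136 and 135 FPKM (log2 change 1.42, adjusted p = 0.00502), and CTGF (1.16). VIM, vimentin, fell by 0.40.

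Of 12 tested immediate early transcription factors 4 rose and 0 fell. JUN went from 21.1 and 21.9 to 87.8 and 83.3 FPKM (log2 change 1.94, SE 0.0775, adjusted p = 0.00403), with 36.7 and 38.0 FPKM in eKD1, and KLF6 from 16.7 and 15.3 to 36.7 and 34.9 FPKM. KLF2, at 2.39 and 3.07 FPKM in control and 11.8 and 16.8 FPKM in eKD2, is among the 4 but was tested only through its level in eKD2, so it is not support. Among 15 tested antioxidant and pentose phosphate genes 5 fell and 1 rose. PRDX1, a peroxiredoxin, fell from 1842 and 1799 to 824 and 822 FPKM (log2 change -1.14, SE 0.0340, adjusted p = 0.00209), PGD, of the pentose phosphate pathway, by 0.56, and the ferritin chain FTL by 0.49. NFE2L2 (NRF2), the transcription factor of the antioxidant response, was the one that rose, from 44.5 and 45.6 to 81.0 and 91.3 FPKM (log2 change 0.92, adjusted p = 0.0128).

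Smaller lists are given by their counts, beside the 12.8% of all tested genes called higher and the 8.42% called lower. Of 10 tested TXNIP family and mTORC1 brake genes, 2 rose, TSC22D3 (GILZ, log2 change 1.53) and ARRDC4 (0.88), and 2 fell, FLCN (-1.0) and SESN1 (-0.80). Of 13 autophagy genes 2 rose and 2 fell, with SQSTM1 (p62), a cargo receptor, down from 84.8 and 76.4 to 51.2 and 47.7 FPKM. Of 11 BCL2 family genes 3 rose, PMAIP1 (NOXA, log2 change 0.93), BCL2 (0.86) and BCL2L1 (0.64), that is both death-promoting and death-opposing members. BCL2 was tested only because it passed 5 FPKM in eKD2, so its rise is not support. Of 17 interferon response and MHC class I genes 4 fell, among them IFI6 (log2 change -1.14). The shares called in either direction were 30.8% for autophagy, 27.3% for the BCL2 family and 23.5% for the interferon genes, near the 21.2% over all tested genes, and nothing is read from them. The 1 tested metallothionein or zinc exporter was not called, and messenger RNAs of the mitochondrial genome were not analysed here.

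Beyond the lists, the protein-coding genes with the largest changes held some whose levels or neighbours limit them. ZNF10 rose from 7.32 and 6.68 to 30.7 and 33.9 FPKM (log2 change 2.06, SE 0.113, adjusted p = 0.00819), while the eKD1 libraries held 45.1 and 36.2 FPKM and the normoxic controls 10.4 and 9.57 FPKM. ZNF10 (KOX1) is the gene from which the KRAB domain of dCas9-KRAB constructs was taken, and whether its reads come from the lentivirus was not tested. Both knockdown pools were high and all 4 controls low, although the growth protocol gives the controls the same virus without a guide. HOOK1 was uneven in eKD2, at 99.8 and 40.8 FPKM against 14.3 and 16.2 FPKM in control (adjusted p = 0.0447). AL161911.1, ELAC1, BEST1 and NUDT6 rose from at most 1.16 FPKM in control to between 5.38 and 7.76 FPKM in eKD2, and AL161911.1, BEST1 and NUDT6 share exon sequence with the opposite-strand genes FBXW2, FTH1 and FGF2.

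Among the falls, SLCO1C1, a carrier of thyroid hormone, went from 11.7 and 12.9 to 0.964 and 1.46 FPKM, but the eKD1 libraries were apart at 13 and 1.2 FPKM. GP1BB, at 7.20 and 9.50 FPKM in control and 0.00171 and 0.226 FPKM in eKD2, shares exons with SEPTIN5 on the same strand and was uneven in normoxia at 17.2 and 0.111 FPKM. PLEKHH2, RFX1, GRB14, ZNF672, ANKLE1, ACSF2 and the ribonuclease gene ANG fell by 1.21 to 1.53 on the log2 scale. ANG shares exons with RNASE4 on the same strand, so its value depends on how shared reads were assigned. SLCO1C1, GP1BB, PLEKHH2, RFX1, GRB14, ANKLE1 and ACSF2 were tested only because they passed 5 FPKM in control, and AL161911.1, ELAC1, BEST1 and NUDT6 only because they did so in eKD2, so their calls are descriptions and not support. Of the genes that are not protein-coding and have at least 300 nt of exons, TRAV6, AC089987.1 and MAFG-AS1 had the largest rises (log2 changes 2.12, 1.84 and 1.84). RPL39P5, a pseudogene inside AMOTL2, was listed at 0 in both eKD2 libraries and at 20.2 and 21.0 FPKM in control, and CD27-AS1 and PARD3-AS1 fell by 1.77 and 1.74. Of these non-coding genes AC089987.1, MAFG-AS1, RPL39P5 and PARD3-AS1 likewise passed 5 FPKM in 1 group only. TRAV6, at 3.31 and 6.45 FPKM in control, also passed the filter only through its level in eKD2.

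The labelled cell type was checked against markers. All 9 Ewing sarcoma markers were expressed, 5 were called higher and 1, CD99 (417 and 406 to 329 and 320.3 FPKM), lower. Markers of endothelium and skeletal muscle were below the level tested, with MYOG at 0 in every library. Of 5 epithelial markers 3 were tested. KRT18 rose from 74.8 and 80.3 to 115 and 120 FPKM and the other 2 tested were not called, while CDH1 and KRT19 were at 2.33 FPKM or less in every library. Of 5 blood markers CD3E and HBB were at 0 in every library and 1 was tested, PTPRC (CD45), which rose from 4.87 and 5.39 to 14.3 and 13.5 FPKM (log2 change 1.28, adjusted p = 0.0137) and stood at 22.5 and 23.8 FPKM in normoxic controls. PTPRC passed the filter only through its level in eKD2, so its rise is not support. The summed blood marker level was 5.51 and 5.78 FPKM in control hypoxia and 15.1 and 15.2 FPKM in eKD2, nearly all of it PTPRC. Of 5 fibroblast markers 4 were tested, 1 was called lower and 3 were not called. COL1A2 fell by 0.29 and PDGFRA was under 1 FPKM. The summed fibroblast marker level was 369 and 382 FPKM in control hypoxia and 342 and 329 FPKM in eKD2, so expression of these markers was not absent.

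The guides were compared with each other because both were aimed at the same enhancer. Between eKD2 and eKD1, 266 genes passed the test (2.45%), 170 higher and 96 lower in eKD2, and 217 of them had also been called against control, 146 higher and 71 lower in both tests. The eKD2 libraries enter both comparisons, so these are not independent. Of the stress response regulators 13 of 20 were higher in eKD2 than in eKD1 and 0 lower, with median log2 differences of 1.04 between the guides, 0.48 for eKD2 against control and -0.30 for eKD1 against control. ATF5 shows the order, with eKD1 at 48.5 and 52.4 FPKM, control hypoxia at 164 and 164 FPKM and eKD2 at 207 and 214 FPKM, which is a description of 1 gene. For the synthetases 9 of 20 were higher than in eKD1, for the transporters 7 of 12, and for amino acid synthesis 6 of 14. Of the chaperones 8 of 20 were lower than in eKD1 and 1 higher, and of the tubulins 6 of 17 were lower. The lists of mitosis (0 of 32), genes activated by the fusion (0 of 26), autophagy (0 of 13) and interferon response (0 of 17) held no gene that passed between the guides, by limma at this threshold with 2 libraries a group, which does not show that the guides acted alike on them.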

How the data were processed

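Poly-A selected RNA of SK-N-MC cells was sequenced from single ends. The authors deposited one table of FPKM per gene and library. Per the submitters' processing notes, reads were checked with FastQC, aligned with STAR to hg19 and turned into FPKM with Cuffnorm, with default STAR settings per the study's methods, which also name the STAR and GRCh37 releases. The Cuffnorm version and the treatment of shared reads are not given in the sources used here. A count-based test is also named there, but no counts were analysed here. Names were matched to GENCODE annotation on GRCh37 (99.37% of tested genes).

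Genes with at least 5 FPKM in 2 of the 4 libraries were tested on log2(FPKM + 1) with limma 3.58.1 in R 4.3.3 (empirical Bayes with a variance trend, Benjamini-Hochberg over all 10867 genes, threshold 0.05, two-sided). Fold changes on this scale understate those of low genes. The fit held the 2 control hypoxia and 2 eKD2 libraries, and a second fit eKD2 and eKD1. Replicate numbers did not pair the samples (correlation of deviations 0.0384). The steps were tested on simulated data. Genes were named by rule: LOXHD1, HIF1A, CA9, VEGFA and FLI1, the 12 largest called changes each way among protein-coding genes, 3 each way among others with at least 300 nt of exons, and up to 4 called members each way per list, with further list members given as such and SNORD33 chosen after its values were seen. A few items that this rule covers are not reported here. Members and lists were chosen with earlier results of these data known. Depth was not given. Relative depth, as the library size used in scaling, was read from the step size of values under 1 FPKM. P-values measure only the spread between duplicates. Alternatives were another pseudocount, other filters, protein-coding genes only, 2 rescalings, a fit of all 8 libraries, no variance trend, a replicate block and each library left out.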

Additional observations from a re-analysis of the deposited data

Results flagged for a closer look

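The eKD2 and eKD1 hypoxia libraries were made with different guides against the same enhancer, and 61 of the 188 genes chosen by rule or as list members differed between them by limma (44 higher and 17 lower in eKD2, adjusted p from 0.00501 to 0.0491), against 2.45% of all tested genes. Of the 188 genes 174 had been called between eKD2 and control, a test that shares the eKD2 libraries, so a high share is built in by the choice of genes. Each value that follows is the log2 difference, eKD2 minus eKD1, with 2 libraries a group. No explanation was weighed.

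Among stress response regulators the differences were 3.0 for CHAC1, 2.25 for ATF3, 2.22 for SESN2, 2.04 for ATF5, 2.02 for PPP1R15A, 1.95 for TRIB3, 1.92 for DDIT3, 1.88 for JDP2, 1.40 for VLDLR, 1.33 for CEBPG, 0.74 for EIF4EBP1 and 0.71 for STC2. Among transporters they were 3.10 for SLC7A11, 1.93 for SLC7A1, 1.84 for SLC7A5, 1.33 for SLC3A2, 1.07 for SLC6A9, 1.06 for SLC1A5 and 0.85 for SLC38A1. In amino acid synthesis they were 2.49 for ASNS, 2.02 for PSAT1, 1.75 for PSPH, 1.65 for MTHFD2 and 0.76 for PHGDH, and among the synthetases 1.56 for AARS, 1.56 for GARS, 1.47 for MARS and 1.02 for NARS. All of these were higher in eKD2. PHGDH was called between the guides although its difference from control had not passed.

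Among folding genes of the endoplasmic reticulum HERPUD1 differed by 1.39, HSPA5 by -0.85, PDIA4 by -0.51 and CALR by -0.42. Among chaperones of the cytosol and mitochondria HSPA8 differed by -1.74, HSPA1A by -1.70, DNAJA1 by -1.34, HSPE1 by -0.80, HSP90AA1 by -0.75, HSP90AB1 by -0.47 and HSPA9 by 0.74. In the cytoskeletal lists TUBB4B differed by -1.21, TUBA4A by -1.09, TUBB6 by -1.07, TUBB3 by -0.84, ACTG1 by -0.65 and RHOB by 0.74. Most chaperone and tubulin values named here were negative, that is lower in eKD2.

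Of the genes chosen from the lists of glycolysis and other HIF targets, MXI1 (1.21), PDK1 (0.72) and HK2 (0.69) differed. In each of these lists 1 other member was called lower in eKD2 than in eKD1. The mesenchymal genes CYR61, LOX and ANXA1 differed by 1.55, 0.72 and 0.47. The immediate early factors JUN and KLF6 differed by 1.17 and 0.90, and TSC22D3 and ARRDC4 by 1.69 and 1.10. PMAIP1 differed by 1.30, CDKN1B by 0.80, CCNE1 by -1.10, PRDX1 by -1.06, RPL36AL by -0.69 and BEST1 by 1.73. BEST1 passed the filter only through its level in eKD2, and HSPA1A only through control hypoxia, so these differences are descriptions and not support.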

How the results depend on the processing

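With 2 libraries a group, the calls depended on the pooled spread. Leaving out 1 library left 2 to 7 genes called higher and 0 to 15 called lower, with 2963 to 3581 genes at an unadjusted p under 0.05, and 3 to 36 genes called between eKD2 and eKD1. The lone library of a group was then assumed to vary like the other group. LOXHD1 stayed between -2.89 and -2.86 in these fits, and its adjusted p was 0.0586 without control hypoxia replicate 1 and 0.0632 without replicate 2. Against 1391 higher and 915 lower genes, the counts were 891 and 586 with the filter at 1 FPKM, 15 and 10 with no filter (5747 at an unadjusted p under 0.05), 2120 and 611 with equal FPKM totals, 1124 and 1156 after median-of-ratios rescaling, and 762 and 476 with the replicate block. The share of higher genes among the called was 60.3%, 77.6% with equal totals and 49.3% after median-of-ratios rescaling. The numbers of the duplicates did not pair the libraries (correlation of deviations 0.0384 between control hypoxia and eKD2), so the replicate block is only given as a value, and under it LOXHD1 had an adjusted p of 0.0180. Between the guides 266 genes became 62 with the filter at 1 FPKM, 13 with none, 458 with the filter at 10 FPKM, 824 with protein-coding genes only, 1614 in the fit of all 8 libraries, 101 without a variance trend and 3 with the replicate block. Of 174 called genes chosen by rule or as list members, 0 changed sign in any alternative, and 139 kept their call in every alternative other than the block, no filter and leaving out a library. Among genes not called, LDHA was -0.01 and became 0.09 with equal totals and -0.04 to 0.01 with 1 library left out, and NKX2-2 was -0.05 and became 0.05 and -0.11 to 0.01. The cause of these shifts was not tested. Depth in reads is unknown, so no counting limit can be given for genes at 0.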
